A study of Mus musculus with 27 samples.

Results

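The libraries described here compared cells treated with trichostatin A (TSA), an inhibitor of histone deacetylases, with untreated cells. They were chosen by their sample labels, and they are 4 of the 27 libraries of the series: 2 TSA libraries (150 nM for 24 h) and 2 untreated libraries. All 4 came from Setdb1 cKO iMEFs, immortalized mouse embryonic fibroblasts in which the histone methyltransferase gene Setdb1 can be deleted by 4-hydroxytamoxifen (4OHT). No 4OHT was given to these 4 cultures, so Setdb1 was intact in both groups. The cells descend from 1 clone (MEF3-12), so the values describe that line. Because the labels do not say that the replicates were separate cultures, the p-values measure the spread between these libraries, which may be technical. Setdb1 itself stood at 8.76 and 10.1 FPKM in the untreated libraries and 9.56 and 9.001 FPKM with TSA, and its groups overlapped.

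Histone deacetylases remove acetyl groups from lysines of histone tails and of many other proteins, and they work largely inside corepressor complexes that keep genes silent. TSA binds the zinc in the catalytic pocket of the class I and II enzymes, and acetylated histones build up in treated cells. In cultured cells such inhibitors are known for slowing the cell cycle, for raising the cyclin-dependent kinase inhibitor p21 and for switching on genes that belong to other tissues. The sirtuins use another cofactor and are not TSA targets.

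Expression was given as FPKM, the fragments of a gene scaled to its transcript length and to the mapped fragments of the library. The confidence limits in the files imply about 11800000 to 13000000 fragments per library. Across the tested genes the log2 values correlated at 0.974 between the untreated libraries and at 0.961 between the TSA libraries, and at 0.773 to 0.801 between treated and untreated libraries, a description over genes and not over replicates. Some values of 0 stood beside high values in the other group. There were 16 genes listed at 0 in both untreated libraries with at least 10 FPKM in both TSA libraries, and 18 with the reverse pattern. Among them were genes used in most cells, such as Elp5 (listed at 0 in both untreated libraries, 75.9 and 75.4 FPKM with TSA) and Phax (34.5 and 34.1 FPKM untreated, listed at 0 with TSA). A 0 can therefore be a failed estimate, and for such genes only the listed values are given.

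TSA changed a large part of the measured transcriptome. Of 11315 rows tested, 11306 genes and 9 families of endogenous retroviral elements, 2191 (19.4%) were higher and 1442 (12.7%) were lower by at least 2-fold at an adjusted p under 0.05 (limma on log2(FPKM + 0.1), two-sided, Benjamini-Hochberg), together 32.1%. Both TSA libraries lay above both untreated libraries in 47.1% of the rows and below them in 38.3%. The balance of the calls depended on the scaling. Without rescaling 60.3% of the calls were higher, and after quantile normalization 48.7% were, with 1901 higher and 2005 lower, as the median log2 difference of all rows moved from 0.10 to -0.0093. By at least 4-fold 1014 rows were higher and 390 lower, and by at least 16-fold 336 were higher and 60 lower. This excess of large rises depended on which genes could be tested. The filter asked for 1 FPKM or more in at least 2 of the 10 inhibitor libraries, and 806 genes reached this only through the TSA libraries, so that they had to differ, and 723 of them were called higher. Without them 1463 of 10500 genes (13.9%) were higher and 1441 (13.7%) lower, with a median log2 difference of 0.02, and 383 were higher and 389 lower by at least 4-fold and 54 and 60 by at least 16-fold.

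Genes called higher had lower untreated levels than genes called lower, in part through the filter, since a silent gene could be tested only if it was higher in some other group. The median untreated level was 1.57 FPKM for genes called higher, 16.3 FPKM for genes called lower and 13.7 FPKM for genes not called. With TSA the genes called higher had a median of 7.51 FPKM and those called lower 4.87 FPKM. In 956 of the 2186 genes called higher the untreated mean was under 1 FPKM, which held for 15 of the 1441 genes called lower. Without the genes tested only through the TSA libraries, the median untreated level was 4.71 FPKM for genes called higher, of which 239 of 1463 lay under 1 FPKM, and 16.3 FPKM for genes called lower. Among genes with an untreated mean of 10 to 100 FPKM, 7.89% were called higher and 15.2% lower, and at 100 FPKM or more 5.10% were called higher and 17.6% lower. At least 1 FPKM was reached by 9953 and 9983 genes in the untreated libraries and by 10819 and 10849 genes with TSA.

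**Figure D1:**
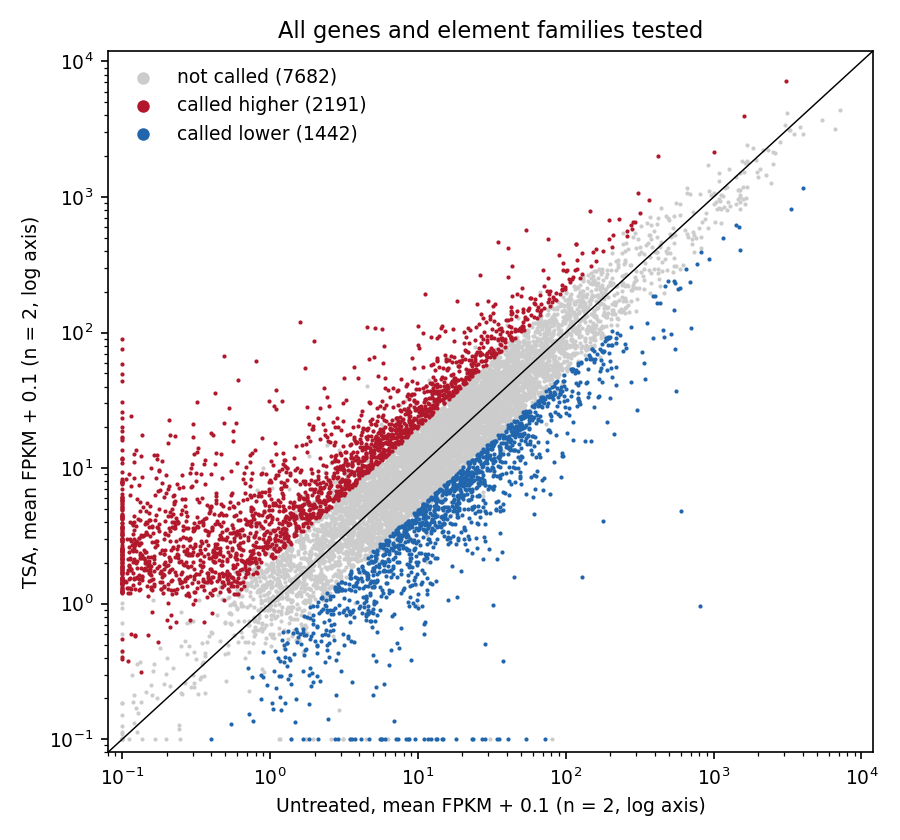
Mean FPKM + 0.1 of the 2 TSA libraries (y, log axis) against that of the 2 untreated libraries (x, log axis) for every gene and element family tested, with the 2191 called higher in red, the 1442 called lower in blue and the line of equal level in black. The red points crowd at low untreated levels, where genes could be tested only if another group was higher, and the columns of points at 0.1 on either axis are genes listed at 0 in both libraries of a group.

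The 12 genes with the largest rises, among called genes above 0 in all 4 libraries, are described with what each is known for. Stmn2, a stathmin that regulates microtubules in growing neurons (chromosome 3, 8509527 to 8561604, mm9, as the assembled locus), stood at 0.458 and 0.321 FPKM in the untreated libraries and 61.1 and 74.2 FPKM with TSA, a log2 difference of 7.12 ± 0.48 (adjusted p = 2.69e-05). Vgf, a neurosecretory peptide precursor, stood at 1.12 and 1.86 FPKM in the untreated libraries and 116 and 123 FPKM with TSA, a log2 difference of 6.27 ± 0.41 (adjusted p = 2.22e-05). Ngfr, the p75 neurotrophin receptor, stood at 0.0442 and 0.0975 FPKM in the untreated libraries and 10.5 and 12.8 FPKM with TSA, a log2 difference of 6.11 ± 0.30 (adjusted p = 8.44e-06). In each of these genes the TSA libraries were close together and far above both untreated libraries. Also in this group were Nrgn (neurogranin, a calmodulin-binding postsynaptic protein, 6.25), Ppp1r1b (a phosphatase regulator of dopamine-responsive neurons, 6.25), Atp1b2 (a sodium pump subunit of glia and neurons, 6.39), Tubb4a (a brain beta-tubulin, 6.23) and Bex1 (6.11), all as log2 differences. The others were Krtap1-5, a hair keratin-associated protein of a multigene family that can share reads (6.56), Nppb, the B-type natriuretic peptide (6.21), Chchd10, a mitochondrial protein (6.14), and Abhd3 (6.38).

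The 12 largest falls were found by the same rule. Angptl7, a secreted angiopoietin-like protein (chromosome 4, 147869389 to 147874571, mm9), stood at 798 and 809 FPKM in the untreated libraries and 1.29 and 0.43 FPKM with TSA, a log2 difference of -9.87 ± 0.38 (adjusted p = 2.75e-06). Mgp, the matrix Gla protein that restrains calcification, stood at 589 and 607 FPKM in the untreated libraries and 4.08 and 5.38 FPKM with TSA, a log2 difference of -6.96 ± 0.91 (adjusted p = 0.000486). Both went from among the highest levels of the untreated cells to a few FPKM or less. Gas1, a surface co-receptor for Hedgehog ligands first known from growth arrest, stood at 186 and 172 FPKM in the untreated libraries and 4.33 and 3.69 FPKM with TSA, a log2 difference of -5.45 ± 0.21 (adjusted p = 2.63e-06). Lsp1 (an F-actin-binding protein, -6.35), Slc14a1 (a urea transporter, -5.82), Uba7 (the activating enzyme for the ubiquitin-like protein ISG15, -5.51), Srpx (-5.07), Sbspon (-4.56), Mfap4 (a microfibril protein, -4.55), Calml4 (-4.42), Clec2d (-4.24) and Bmp3 (a bone morphogenetic protein, -4.19) made up the rest, as log2 differences.

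**Figure D2:**
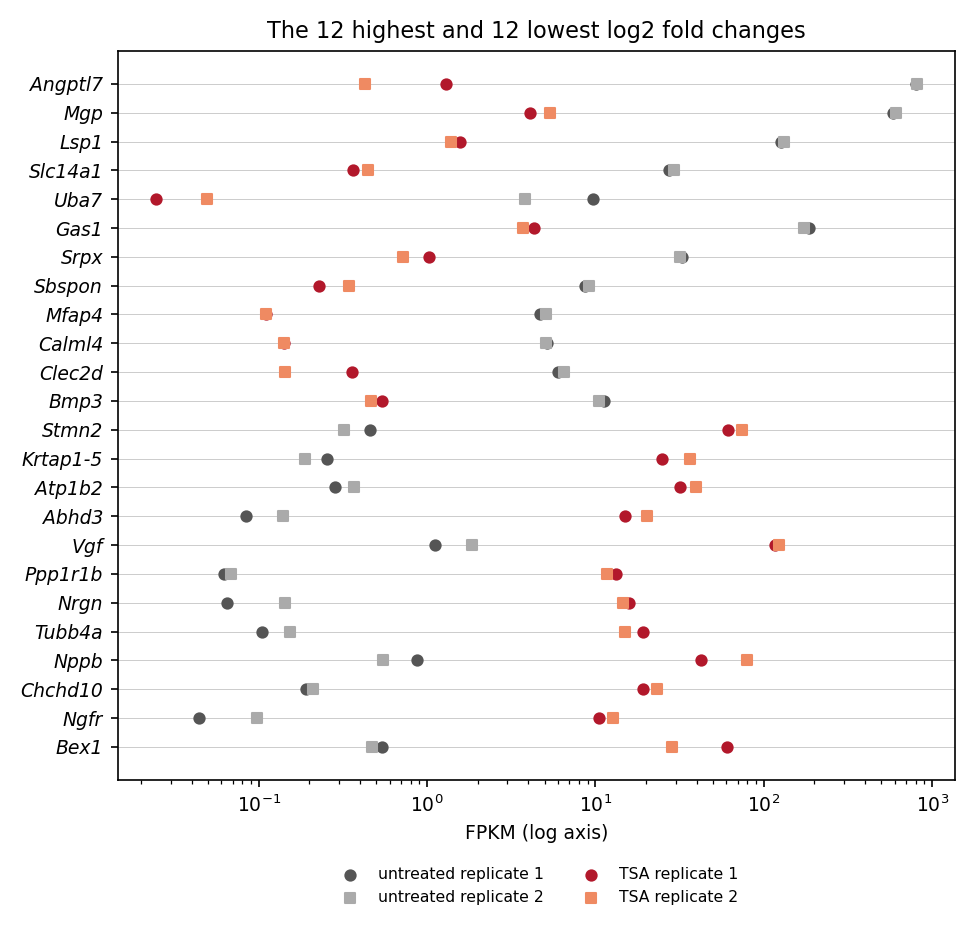
FPKM (x, log axis) in each of the 4 libraries for the 12 genes with the lowest and the 12 with the highest log2 differences among called genes above 0 in every library. Replicates lie near each other, and the TSA points of Angptl7 (1.29 and 0.430 FPKM) lie far to the left of its untreated points (798 and 809 FPKM).

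In FPKM, the largest rises and falls were mostly in other genes, those that were abundant in both groups. The exception was Angptl7, described above, whose mean difference of -802.5 FPKM was larger in size than that of Rps4x (-789.1 FPKM). Spp1, the secreted matrix protein osteopontin, rose from 424 and 410.4 to 1707 and 2305 FPKM (log2 difference 2.25, adjusted p = 4.04e-05). Prdx1, a peroxiredoxin, rose from 319 and 300.1 to 1015 and 1143 FPKM (log2 difference 1.80, adjusted p = 0.000206), and Atox1, a copper chaperone, rose from 138 and 153 to 727 and 843 FPKM (log2 difference 2.43, adjusted p = 0.00205). These 3 genes rose by over 3-fold from levels above 100 FPKM. Tpt1 (log2 difference 1.21, adjusted p = 0.00296), Ftl1, the ferritin light chain (log2 difference 1.29, adjusted p = 0.00293), and Vim, the intermediate filament vimentin (log2 difference 1.09, adjusted p = 0.0017), rose less. On the other side Ppia, cyclophilin A, fell from 4029 and 3996 to 1199 and 1130 FPKM (log2 difference -1.78, adjusted p = 0.000715). Crabp1, a retinoic acid-binding protein, fell from 3253 and 3388 to 792 and 837 FPKM (log2 difference -2.03, adjusted p = 0.000217). Npm1, nucleophosmin, fell from 1546 and 1478 to 456 and 361 FPKM (log2 difference -1.90, adjusted p = 7.42e-05). Nme2 (log2 difference -1.31, adjusted p = 0.000573) and Rps4x (log2 difference -1.20, adjusted p = 0.00214) fell as well. Ppia, Npm1, Rps4x, Tpt1 and Ftl1 have near-identical processed pseudogenes, and since a read with several matches was placed at 1 of them, their levels are uncertain. The call of Vim was lost when the TSA values were centred on the median difference or without untreated replicate 1, and that of Rps4x after quantile normalization or without TSA replicate 2.

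Promoters of some of the genes that led these changes are shown as a description, and no contrast between rises and falls is drawn. They are 2 of the highest and 2 of the lowest of those genes with an entry in the RefSeq promoter table (GRCm38.p6, so the coordinates are not those of the FPKM files). Some genes with larger differences than Nrgn or Uba7, among them Abhd3 and Slc14a1, are not shown. Each window has 300 bases, from 250 before to 50 after the transcription start, 5′ to 3′ on the gene's strand. Capitals mark matches, on either strand, to GGGCGG (an Sp1-type GC box), CCAAT (bound by NF-Y), TATAAA (bound by TBP), CACGTG (an E-box) and TGACTCA (an AP-1 site). Krtap1-5 lay at chr11:99580967-99581266 (minus strand), Nrgn at chr9:37552696-37552995 (minus strand), Angptl7 at chr4:148500413-148500712 (minus strand) and Uba7 at chr9:107975317-107975616 (plus strand).
Krtap1-5: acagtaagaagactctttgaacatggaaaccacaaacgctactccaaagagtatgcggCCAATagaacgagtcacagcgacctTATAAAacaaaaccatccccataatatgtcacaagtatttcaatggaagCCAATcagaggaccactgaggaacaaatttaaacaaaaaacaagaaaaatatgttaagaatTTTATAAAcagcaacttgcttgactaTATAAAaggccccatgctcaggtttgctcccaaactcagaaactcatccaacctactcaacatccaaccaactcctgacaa
Nrgn: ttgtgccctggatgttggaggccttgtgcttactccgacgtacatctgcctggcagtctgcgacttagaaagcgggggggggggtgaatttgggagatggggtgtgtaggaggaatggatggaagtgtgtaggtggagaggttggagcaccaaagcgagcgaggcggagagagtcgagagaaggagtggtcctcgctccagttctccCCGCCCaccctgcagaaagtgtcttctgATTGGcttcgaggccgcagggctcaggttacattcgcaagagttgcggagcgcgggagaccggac
Angptl7: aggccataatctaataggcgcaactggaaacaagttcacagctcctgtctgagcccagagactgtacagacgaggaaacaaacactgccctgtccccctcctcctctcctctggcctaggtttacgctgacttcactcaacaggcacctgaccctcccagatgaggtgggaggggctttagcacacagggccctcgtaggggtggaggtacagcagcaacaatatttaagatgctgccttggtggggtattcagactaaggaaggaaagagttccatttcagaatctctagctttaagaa
Uba7: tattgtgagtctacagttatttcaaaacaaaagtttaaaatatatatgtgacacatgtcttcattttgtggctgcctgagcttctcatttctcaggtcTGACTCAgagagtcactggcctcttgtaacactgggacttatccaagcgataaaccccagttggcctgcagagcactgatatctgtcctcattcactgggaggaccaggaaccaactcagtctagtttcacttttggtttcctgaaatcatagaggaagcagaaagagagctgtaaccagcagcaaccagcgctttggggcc

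The Krtap1-5 window held 2 CCAAT matches and 4 TATAAA matches, of which 2 overlap each other, with 4 CG dinucleotides. Nrgn held 1 GGGCGG and 1 CCAAT match with 17 CG dinucleotides. Angptl7 held none of the 5 motifs and 4 CG dinucleotides, and Uba7 1 TGACTCA match and 2 CG dinucleotides. Of the genes not shown, Gas1, which fell, held 17 CG dinucleotides, and Tubb4a, which rose, held 19. Of the 32851 windows of the table, 35.7% held GGGCGG, 37.4% CCAAT, 13.6% TATAAA, 7.15% CACGTG and 5.20% TGACTCA, and the median number of CG dinucleotides was 7. Of the 8970 windows of tested genes, 67.6% held GGGCGG, 39.8% CCAAT, 7.01% TATAAA, 10.3% CACGTG and 3.41% TGACTCA. Their median number of CG dinucleotides was 22.

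Neuronal genes had the highest median difference of the lists with at least 10 tested members. Of 55 measured members 34 were tested, 25 were called higher and 2 lower, and the median log2 difference was 3.77, against 19.4% higher, 12.7% lower and a median of 0.10 over all rows. Both TSA libraries lay above both untreated libraries in 44 of the 55, which held for 35.7% of the 21517 measured genes. Because many members passed the filter only through the TSA libraries, the 16 that passed without them are the fairer count, and of these 8 were higher and 2 lower, with a median of 1.36 against 0.02 for the genes tested in this way. Map2, a dendritic microtubule protein, rose from 3.81 and 3.84 to 39 and 53 FPKM (log2 difference 3.54, adjusted p = 2.04e-05). Uchl1, a ubiquitin hydrolase abundant in neurons, rose from 33.6 and 35.9 to 462 and 475 FPKM (log2 difference 3.75, adjusted p = 4.88e-06). Stx1a, a SNARE of the presynaptic membrane, rose from 1.79 and 1.59 to 12.1 and 13.8 FPKM (log2 difference 2.87, adjusted p = 0.00167). These genes were measurable before treatment, whereas Nrxn2, a presynaptic adhesion protein, went from 0.012 and 0 to 7.2 and 9.17 FPKM (log2 difference 6.28, adjusted p = 5.05e-06). Syp (synaptophysin, 5.50), Nefl (a neurofilament, 5.20), Elavl3 (a neuronal RNA-binding protein, 4.75) and Kif1a (a vesicle motor, 4.13) were also called higher, as log2 differences. Rundc3a, Mapt, Syt1 and Chga were listed at 0 in both untreated libraries and at 16.9 and 16.2, 5.98 and 9.40, 2.67 and 2.81, and 1.36 and 2.26 FPKM with TSA. The exceptions were Dnm1, the dynamin of synaptic endocytosis, which fell from 38.8 and 46.3 to 10.5 and 8.15 FPKM (log2 difference -2.18, adjusted p = 7.71e-05), and Vamp2, which fell from 9.79 and 9.24 to 3.7 and 4.37 FPKM (log2 difference -1.22, adjusted p = 0.000735). Nefh and Ina were listed at 0 in all 4 libraries.

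Markers of other cell types moved with the treatment to unequal extents. Of 13 epithelial and keratinocyte markers, 12 lay higher in both TSA libraries than in both untreated libraries, against 35.7% of all measured genes. The summed level of the 13 was 8.01 to 9.71 FPKM untreated and 140 to 160 FPKM with TSA. Krt19, a simple epithelial keratin, rose from 5.97 and 5.29 to 98.8 and 112 FPKM (log2 difference 4.20, adjusted p = 0.000278), and Epcam, an epithelial adhesion molecule, rose from 0.839 and 1.09 to 28.1 and 29.2 FPKM (log2 difference 4.76, adjusted p = 8.63e-05). Cdh1 (log2 difference 2.99, adjusted p = 0.000119) and Cldn3 (log2 difference 2.86, adjusted p = 0.00343) also rose, and Krt14 went from listed 0 in both untreated libraries to 2.99 and 8.50 FPKM. Krt5, Krt8 and Krt18 stayed under 0.5 FPKM in all 4 libraries. The leukocyte markers summed to 5.67 to 6.24 FPKM untreated and 63.0 to 69.3 FPKM with TSA, nearly all of it Cd68, a lysosomal glycoprotein, which rose from 4.9 and 4.27 to 67 and 60.5 FPKM (log2 difference 3.77, adjusted p = 0.000415). Ptprc, the pan-leukocyte antigen CD45, was listed at 0 in both untreated libraries and stood at 0.0873 and 0.131 FPKM with TSA. The T cell genes Cd3e and Cd3g were at 0 in all 4 libraries. Endothelial markers summed to 0.178 to 0.542 FPKM untreated and 2.84 to 3.17 FPKM with TSA, with Cldn5 and Emcn at 0 throughout. Skeletal muscle markers summed to 1.30 to 2.35 and 3.25 to 4.98 FPKM, with Myog, Myh1, Myh2 and Myh8 at 0 throughout. In bulk RNA, more cells of a type and more RNA per cell cannot be told apart, and the part that other cells might have in these levels was not tested.

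The fibroblast programme moved in both directions. The summed level of 12 measured fibroblast markers was 4083 and 4323 FPKM untreated and 4028 and 4013 FPKM with TSA, while 6 members fell and 3 rose. Col1a1, a chain of type I collagen, fell from 668 and 716 to 237 and 233 FPKM (log2 difference -1.56, adjusted p = 3.44e-05). Prrx1, a homeobox factor of limb mesenchyme, fell from 66.1 and 75.5 to 10.5 and 6.34 FPKM (log2 difference -3.10, adjusted p = 0.000261). Col1a2, Col3a1, Sparc and Pdgfrb also fell, while Thy1 rose from 54.8 and 58.3 to 126 and 176 FPKM (log2 difference 1.40, adjusted p = 0.000162) and Cd44, the hyaluronan receptor, rose from 94.7 and 94.5 to 212 and 204 FPKM (log2 difference 1.14, adjusted p = 0.000867). Vim rose as well, with the limits given above.

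Mesenchymal transcription factors were more often lower than higher. Of 25 tested, 12 were called lower and 2 higher (48.0% and 8.0%, against 12.7% and 19.4% over all rows), with a median log2 difference of -0.95. Osr1, a zinc finger factor of connective tissue progenitors, fell from 33.5 and 34.9 to 2.49 and 1.57 FPKM (log2 difference -4.04, adjusted p = 9.49e-06). Tbx5, a T-box factor of forelimb and heart, fell from 7.89 and 7.21 to 1.2 and 0.995 FPKM (log2 difference -2.68, adjusted p = 6.45e-05), and Tead2, a partner of the Yap coactivator, fell from 51.8 and 65.5 to 12.9 and 12.2 FPKM (log2 difference -2.20, adjusted p = 3.20e-05). Six2 (log2 difference 2.79, adjusted p = 0.000949) and Foxc2 (log2 difference 2.60, adjusted p = 0.00179) were the members called higher, both from under 0.3 FPKM.

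Collagens and other matrix genes included large falls with a few large rises. Of 20 tested collagen genes 8 fell and 4 rose, with a median log2 difference of -0.32, which was 0.45 without a filter on low values. Col3a1 fell from 302 and 308 to 35 and 18.8 FPKM (log2 difference -3.57, adjusted p = 0.000197) and Col6a2 fell from 336 and 349.6 to 46.2 and 44.8 FPKM (log2 difference -2.91, adjusted p = 1.47e-05), whereas Col11a1, a fibrillar chain of cartilage, rose from 0.396 and 0.27 to 5.98 and 5.45 FPKM (log2 difference 3.76, adjusted p = 0.000233). Among 33 tested matrix glycoproteins, crosslinking enzymes and proteases 11 fell and 3 rose (33.3% and 9.09%), with a median of -0.48. Mmp14, a membrane-bound metalloprotease, fell from 136 and 158 to 19.14 and 12.2 FPKM (log2 difference -3.25, adjusted p = 3.78e-05). Lox, which crosslinks collagen, fell from 200.2 and 198 to 38.5 and 27.4 FPKM (log2 difference -2.61, adjusted p = 3.20e-05), as did its relative Loxl1 (-3.12) and the fibrillin Fbn2 (-3.29). Thbs2, a thrombospondin, rose from 14.5 and 15.9 to 116 and 90.6 FPKM (log2 difference 2.75, adjusted p = 0.00175), and Timp1, a metalloprotease inhibitor, rose from 196 and 197 to 569 and 782 FPKM (log2 difference 1.76, adjusted p = 0.00044).

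Contractile genes and targets of transforming growth factor beta (TGF-beta) split. Of 28 tested, 7 rose and 3 fell (25.0% and 10.7%, against 19.4% and 12.7% over all rows). The median log2 difference was -0.11, and 0.14 without TSA replicate 2. Cnn1, the smooth muscle protein calponin, rose from 2.94 and 3.19 to 43.9 and 48.9 FPKM (log2 difference 3.88, adjusted p = 1.07e-06). Ctgf rose from 41 and 40.7 to 239.8 and 277 FPKM (log2 difference 2.66, adjusted p = 0.00255). Tgfbi, a matrix protein named for its induction by TGF-beta, fell from 68.6 and 69 to 8.99 and 7.15 FPKM (log2 difference -3.08, adjusted p = 9.27e-06), and the receptor gene Tgfbr2 fell from 98.9 and 112 to 30.8 and 18.5 FPKM (log2 difference -2.14, adjusted p = 0.000498). Known targets of the pathway lay on both sides.

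Of 27 tested genes of actin regulation and adhesion 9 were higher and 1 lower, against 19.4% and 12.7% over all rows, with a median of 0.65. Without the members tested only through the TSA libraries 6 of 24 were higher and 1 lower, against 13.9% and 13.7% of the genes tested in this way. Rhob, a small GTPase, rose from 96.2 and 96.7 to 271 and 385 FPKM (log2 difference 1.74, adjusted p = 0.000201), and Itgb3, an integrin subunit, rose from 0.14 and 0.209 to 3.8 and 4.85 FPKM (log2 difference 4.01, adjusted p = 8.39e-05). Tns3 fell from 35 and 34.7 to 12.3 and 8.2 FPKM (log2 difference -1.78, adjusted p = 0.000405). Of 18 tubulin and microtubule genes 5 were higher, among them the motor Kif5c (3.32) and Tubb2a (1.46), and 1, Tubb6 (-1.61), was lower. These were 27.8% and 5.56%. Of the 17 tested also without the TSA libraries 4 were higher and 1 lower.

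**Figure D3:**
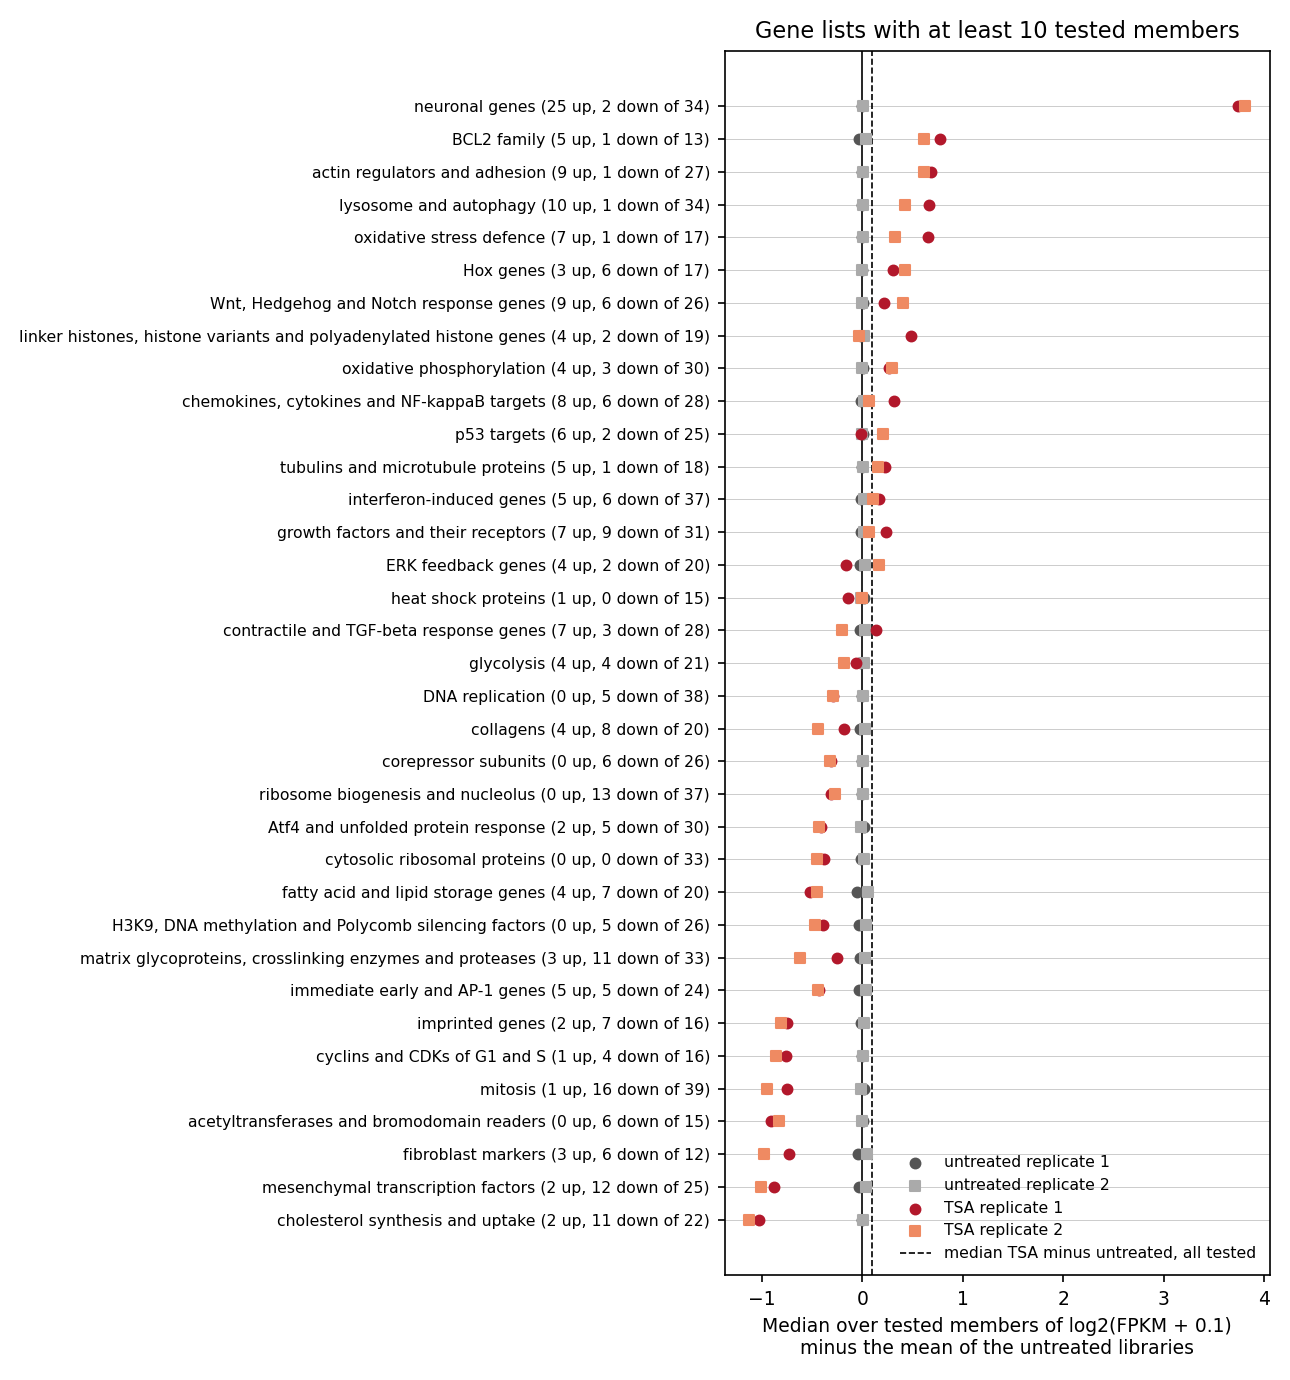
For each gene list with at least 10 tested members, the median over those members of log2(FPKM + 0.1) minus the mean of the untreated libraries (x) is plotted for each of the 4 libraries, with the number of members called higher (up) and lower (down) in brackets and the median difference of all tested rows (0.10) as a dashed line. Neuronal genes lie farthest to the right and cholesterol synthesis farthest to the left in both TSA libraries.

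Genes of mitosis were more often lower than higher. Of 39 tested mitosis genes 16 were lower and 1 was higher (41.0% and 2.56%, against 12.7% and 19.4% over all rows). The median log2 difference was -0.85. In 35 of the 39 both TSA libraries lay below both untreated libraries, against 38.3% of all rows. Aurka, a kinase of the spindle poles, fell from 57.6 and 57.1 to 15.6 and 14.2 FPKM (log2 difference -1.94, adjusted p = 2.47e-05). Ccnb2, a mitotic cyclin, fell from 120.3 and 123 to 35 and 30.3 FPKM (log2 difference -1.90, adjusted p = 4.13e-05), and Cdc20, an activator of the anaphase-promoting complex, fell from 62.8 and 61.1 to 16.2 and 17.6 FPKM (log2 difference -1.87, adjusted p = 8.46e-05). The member that rose was Pttg1, the securin gene (1.08), whose call was lost when the TSA values were centred on the median difference.

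Of 16 cyclins and kinases of G1 and S 4 were lower and 1 higher (25.0% and 6.25%, against 12.7% and 19.4% over all rows), with a median of -0.84. Cdk4 fell from 536 and 539 to 173 and 119 FPKM (log2 difference -1.91, adjusted p = 0.00035), and its partner Ccnd1, cyclin D1, fell from 36.3 and 37.2 to 10.5 and 7.49 FPKM (log2 difference -2.04, adjusted p = 0.00153). Rb1, the retinoblastoma protein that these kinases inactivate, rose from 7.17 and 6.1 to 22.7 and 22.8 FPKM (log2 difference 1.77, adjusted p = 9.35e-05). Of 38 DNA replication genes 5 were lower (13.2%, close to the 12.7% over all rows) and none was higher by limma (9 at an unadjusted p under 0.05 with no fold limit), with a median of -0.29. Rrm1, a subunit of ribonucleotide reductase, fell from 103 and 97.8 to 29.7 and 20.7 FPKM (log2 difference -2.01, adjusted p = 0.000121), and Tk1, thymidine kinase, fell from 107 and 102 to 29.9 and 25.2 FPKM (log2 difference -1.92, adjusted p = 0.000564). Orc6, of the origin recognition complex, was listed at 0 in both TSA libraries and at 63.6 and 80.8 FPKM untreated.

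Of the 7 inhibitors of cyclin-dependent kinases, Cdkn1a and Cdkn2d were higher and none was called lower by limma (3 were lower at an unadjusted p under 0.05). Cdkn1a, which encodes p21 (chromosome 17, 29227924 to 29237667, mm9), rose from 23.2 and 23 to 63.3 and 71.9 FPKM, a log2 difference of 1.54 ± 0.16 (adjusted p = 0.000143), with the groups far apart. Cdkn2d rose from 15 and 17.7 to 34 and 36.2 FPKM (log2 difference 1.10, adjusted p = 0.000464), but not without untreated replicate 1. Among 25 tested p53 targets 6 were higher, Cdkn1a among them, and 2 lower (24.0% and 8.0%, against 19.4% and 12.7% over all rows). Of the 24 tested also without the TSA libraries 5 were higher and 2 lower. Rrm2b, the p53-dependent ribonucleotide reductase subunit, rose from 3.76 and 3.96 to 10.8 and 12.8 FPKM (log2 difference 1.58, adjusted p = 0.00013), while Phlda3, an Akt inhibitor, fell from 39.8 and 39.1 to 13.8 and 14.6 FPKM (log2 difference -1.47, adjusted p = 3.21e-05). In the BCL2 family, which controls the mitochondrial path of cell death, 5 of 13 were higher and 1 lower (38.5% and 7.69%), with a median of 0.69. Of the 12 tested also without the TSA libraries 4 were higher and 1 lower, with a median of 0.40. Among all genes tested in this way 13.9% were higher and 13.7% lower. Bcl2l11, the death-promoting BH3-only protein Bim, rose from 4.88 and 5.83 to 13.6 and 18.3 FPKM (log2 difference 1.54, adjusted p = 0.00306), and Bik, another BH3-only protein, rose from 0.0962 and 0.212 to 4.73 and 4.93 FPKM (log2 difference 4.32, adjusted p = 0.000116). Bcl2, which opposes them, stood at 1.19 and 1.12 FPKM in the untreated libraries and 3.25 and 3.34 FPKM with TSA (log2 difference 1.44, adjusted p = 0.0116), a call that was lost with a pseudocount of 1, without untreated replicate 2 or without TSA replicate 2.

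Genes of sterol and fatty acid synthesis were more often lower than higher. Of 22 tested genes of cholesterol synthesis and uptake 11 were lower and 2 higher, and the median log2 difference of -1.07 was the lowest of the lists with at least 10 tested members. Cyp51 fell from 169 and 165 to 36.3 and 31.6 FPKM (log2 difference -2.30, adjusted p = 4.58e-05) and Nsdhl fell from 61.4 and 60.5 to 14.4 and 14.4 FPKM (log2 difference -2.08, adjusted p = 2.25e-05), both enzymes that demethylate sterol intermediates. Hsd17b7, a later enzyme of the same pathway, rose from 17.2 and 17.4 to 39.3 and 49.2 FPKM (log2 difference 1.34, adjusted p = 0.00117). The other gene called higher, Dhcr7 (1.01), lost its call with a pseudocount of 1, when centred on the median difference, or without untreated replicate 2 or TSA replicate 2.

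Of 20 tested genes of fatty acids and lipid storage 7 were lower and 4 higher, with a median of -0.45. Fasn, fatty acid synthase, fell from 46.6 and 51.3 to 8.45 and 8.15 FPKM (log2 difference -2.54, adjusted p = 6.46e-06). Elovl6, an elongase, fell from 25.2 and 25.6 to 4.54 and 4.91 FPKM (log2 difference -2.40, adjusted p = 2.76e-05), and Fads2, a desaturase, fell from 150.5 and 158 to 28.5 and 27.4 FPKM (log2 difference -2.46, adjusted p = 9.34e-05). The members called higher were Lpl, Dgat2, Cebpa and Pnpla2, of which 2 were tested also without the TSA libraries. Lpl, lipoprotein lipase, rose from 0.129 and 0.121 to 6.74 and 5.83 FPKM (log2 difference 4.82, adjusted p = 7.54e-06), and Dgat2, which makes triglycerides, rose from 2.56 and 2.9 to 21.9 and 24.7 FPKM (log2 difference 3.05, adjusted p = 0.000182). Fabp5, a fatty acid-binding protein, fell from 549 and 549 to 74 and 76 FPKM (log2 difference -2.87, adjusted p = 0.000268).

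Of 21 glycolysis genes 4 were higher and 4 lower, 19.05% each against 19.4% and 12.7% over all rows. The platelet-type phosphofructokinase gene Pfkp rose from 6.96 and 7.19 to 36.6 and 37 FPKM (log2 difference 2.36, adjusted p = 3.54e-05) while the liver-type gene Pfkl fell from 64.6 and 64.8 to 15.5 and 15.4 FPKM (log2 difference -2.06, adjusted p = 6.80e-05). Ldha, lactate dehydrogenase A, fell from 456 and 453 to 111 and 99.5 FPKM (log2 difference -2.11, adjusted p = 8.16e-05), and Hk1, hexokinase 1, rose from 28 and 29 to 59.2 and 64.1 FPKM (log2 difference 1.11, adjusted p = 4.59e-05). In oxidative phosphorylation 4 of 30 genes were higher and 3 lower (13.3% and 10.0%, against 19.4% and 12.7% over all rows). Cox5a, a subunit of cytochrome c oxidase, rose from 179.8 and 179 to 406 and 397 FPKM (log2 difference 1.16, adjusted p = 0.00327), and Ndufb8, a subunit of complex I, fell from 258 and 244 to 83.9 and 79.5 FPKM (log2 difference -1.62, adjusted p = 0.000693).

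The genes of the acetylation machinery itself were measured next. Among the zinc-dependent deacetylases of classes I, II and IV, 1 of 9 tested was called higher (11.1%, against 19.4% over all rows). That was Hdac11, the class IV enzyme, which rose from 2.81 and 3.37 to 11.7 and 11.6 FPKM (log2 difference 1.89, adjusted p = 0.00164). Hdac7 was the member called lower, but it was listed at 0 in both TSA libraries against 14.2 and 12.5 FPKM untreated. The class I genes Hdac1, Hdac2 and Hdac3 moved by less than 2-fold. Hdac1 stood at 69.7 and 67.6 FPKM in the untreated libraries and 108 and 114 FPKM with TSA (log2 difference 0.69, adjusted p = 0.00114), Hdac2 at 107 and 99.3 FPKM in the untreated libraries and 135 and 132 FPKM with TSA (log2 difference 0.37, adjusted p = 0.0114) and Hdac3 at 58.2 and 56.5 FPKM in the untreated libraries and 39.7 and 42 FPKM with TSA (log2 difference -0.49, adjusted p = 0.00284), so that the groups did not overlap in any of the 3. Hdac6, a cytoplasmic tubulin deacetylase, stood at 17.5 and 18 FPKM in the untreated libraries and 29.6 and 27.8 FPKM with TSA (log2 difference 0.69, adjusted p = 0.0122), and Hdac4 at 3.27 and 3.67 FPKM in the untreated libraries and 3.43 and 3.13 FPKM with TSA, the last with overlapping groups. Hdac8 stood at 8.97 and 9.93 FPKM in the untreated libraries and 6.22 and 3.65 FPKM with TSA and Hdac10 at 6.09 and 8.44 FPKM in the untreated libraries and 2.94 and 5.72 FPKM with TSA, neither of them called. Hdac8 passed the 2-fold limit and was called lower after quantile normalization, when centred on the median difference or without TSA replicate 1, and Hdac10 without TSA replicate 2. Of 5 tested sirtuins only Sirt6 was called, and that call of a lower level was lost with a pseudocount of 1, without untreated replicate 2 or without TSA replicate 1.

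Acetyltransferases and bromodomain proteins, which write and read the acetyl mark, were lower in 6 of 15 and higher in none by limma (1 at an unadjusted p under 0.05). The share called lower was 40.0%, against 12.7% over all rows, and the median log2 difference was -0.86. Kat2b, the acetyltransferase PCAF, fell from 11.8 and 11.4 to 3.29 and 2.55 FPKM (log2 difference -1.97, adjusted p = 0.000715). Brd1, a bromodomain scaffold of acetyltransferase complexes, fell from 17.9 and 17.9 to 5.68 and 4.7 FPKM (log2 difference -1.77, adjusted p = 0.000246). Ep300, the acetyltransferase p300, fell from 24.2 and 26.1 to 10.6 and 9.62 FPKM (log2 difference -1.31, adjusted p = 0.00739), though not without TSA replicate 2. Its relative Crebbp (-1.47) was called lower with all 4 libraries but not without any 1 of them.

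Corepressor subunits, the partners of the deacetylases, were lower in 6 of 26 and higher in none (4 at an unadjusted p under 0.05). The share called lower was 23.1%, against 12.7% over all rows, and the median was -0.32. Chd3, a remodeller of the NuRD complex, fell from 27.2 and 28.5 to 3.29 and 2.74 FPKM (log2 difference -3.17, adjusted p = 1.00e-05). Mta1, another NuRD subunit, fell from 36.4 and 39 to 6.51 and 4.15 FPKM (log2 difference -2.83, adjusted p = 2.76e-05), and Ncor1, a nuclear receptor corepressor, fell from 41.7 and 42.4 to 14.7 and 12.2 FPKM (log2 difference -1.64, adjusted p = 0.00332). Factors of H3K9 methylation, DNA methylation and Polycomb silencing were lower in 5 of 26 (19.2%) and higher in none (2 at an unadjusted p under 0.05), with a median of -0.47. Trim28, the corepressor that recruits Setdb1 to retroelements, fell from 89.5 and 90.8 to 32.9 and 28.4 FPKM (log2 difference -1.55, adjusted p = 2.64e-05). Cbx5, the heterochromatin protein HP1 alpha, fell from 44.4 and 45.9 to 14.9 and 12.3 FPKM (log2 difference -1.73, adjusted p = 4.09e-05), and Dnmt3a, a de novo DNA methyltransferase, fell from 6.003 and 6.54 to 1.996 and 1.93 FPKM (log2 difference -1.62, adjusted p = 0.00178).

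Of 19 tested histone genes 4 were higher and 2 lower (21.1% and 10.5%, against 19.4% and 12.7% over all rows). The median of 0.31 was -0.14 after quantile normalization and -0.03 without TSA replicate 1. H2afj, a replication-independent H2A variant, rose from 7.16 and 7.64 to 18 and 23.4 FPKM (log2 difference 1.46, adjusted p = 0.000668), and H2afy, the macroH2A1 gene, fell from 53.3 and 55.6 to 26.3 and 24.2 FPKM (log2 difference -1.11, adjusted p = 5.04e-05). H2afy2, the second macroH2A gene, stood at 44.3 and 45.1 FPKM untreated and at 2.96 FPKM and a listed 0 with TSA. Single-exon histone genes share reads within their multigene family, and their levels are uncertain.

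Several stress-defence genes rose. In oxidative stress defence 7 of 17 were higher and 1 lower (41.2% and 5.88%, against 19.4% and 12.7% over all rows), with a median of 0.44. Gsta4, a glutathione transferase for lipid aldehydes, rose from 27.4 and 24.7 to 264 and 272 FPKM (log2 difference 3.36, adjusted p = 0.00018). Srxn1, which restores oxidized peroxiredoxins, rose from 15.1 and 13.6 to 88.5 and 137 FPKM (log2 difference 2.93, adjusted p = 3.56e-05), and Gpx1, a glutathione peroxidase, fell from 169 and 182 to 68 and 77.9 FPKM (log2 difference -1.27, adjusted p = 0.00102). Of 15 heat shock genes Hspb1 alone was called (6.67% higher, under the share over all rows). It rose from 53.2 and 55 to 585 and 550.3 FPKM (log2 difference 3.39, adjusted p = 0.000287). Lysosome and autophagy genes were higher in 10 of 34 and lower in 1 (29.4% and 2.94%), with a median of 0.54. Of the 33 tested also without the TSA libraries 9 were higher and 1 lower, against 13.9% and 13.7% of the genes tested in this way. Ctsl, the protease cathepsin L, rose from 88 and 90.7 to 390.2 and 352 FPKM (log2 difference 2.05, adjusted p = 0.0033), and Grn, the progranulin gene, rose from 129 and 129.9 to 473 and 302 FPKM (log2 difference 1.55, adjusted p = 0.00147). Galc, a lysosomal galactosidase, fell from 6.28 and 5.46 to 1.52 and 1.78 FPKM (log2 difference -1.77, adjusted p = 0.000206).

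Of 30 genes of the Atf4 and unfolded protein response 2 were higher and 5 lower, with a median of -0.36. These were 6.67% and 16.7%, against 19.4% and 12.7% over all rows. Herpud1, an endoplasmic reticulum stress protein, fell from 47.5 and 49.9 to 10.5 and 8.1 FPKM (log2 difference -2.39, adjusted p = 0.000176), and Shmt2, a mitochondrial serine enzyme, fell from 138 and 146 to 34 and 33.3 FPKM (log2 difference -2.07, adjusted p = 9.27e-06). In this list 1 call in each direction rested on a listed 0, and the other gene called higher, Chac1 (1.10), lost its call without any 1 of the 4 libraries and under 4 other alternatives. Ddit3, the stress factor CHOP, was listed at 0 in both untreated libraries and at 94.5 and 85.0 FPKM with TSA, and Atf5 at 52.4 and 54.4 FPKM untreated and 0 with TSA.

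Ribosome biogenesis genes were lower in 13 of 37 and higher in none (6 at an unadjusted p under 0.05 by limma). The share called lower was 35.1%, against 12.7% over all rows, and the median was -0.34. Nob1, a nuclease that completes the small subunit RNA, fell from 31.5 and 33.9 to 7.09 and 7.5 FPKM (log2 difference -2.15, adjusted p = 5.70e-05). Mybbp1a, a nucleolar protein, fell from 98.4 and 95.7 to 34.5 and 33.7 FPKM (log2 difference -1.51, adjusted p = 0.000131), and Wdr43, a factor of small subunit assembly, fell from 47.5 and 46 to 18.2 and 17.2 FPKM (log2 difference -1.40, adjusted p = 0.000486). None of the 33 tested ribosomal protein genes in the list was called by limma (12 were lower and 0 higher at an unadjusted p under 0.05). Their median log2 difference was -0.41. In 23 of them both TSA libraries lay below both untreated libraries, against 38.3% of all rows. Rplp1 stood at 3947 and 4047 FPKM in the untreated libraries and 2907 and 2907 FPKM with TSA (log2 difference -0.46, adjusted p = 0.197), and Rps2 at 3108 and 3200 FPKM in the untreated libraries and 4022 and 4260 FPKM with TSA (log2 difference 0.39, adjusted p = 0.237). These genes also have many processed pseudogenes.

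Genes of immunity and signalling split into rises and falls. MHC class I presentation was covered by 8 of 19 listed genes, since 11 were joined with a neighbour in at least 1 library, and 5 of the 8 were higher and 1 lower, against 19.4% and 12.7% over all rows, with a median of 1.59. Of the 5, Nlrc5 lost its call without any 1 of the 4 libraries, with a pseudocount of 1 or after quantile normalization. Cd274 lost its call with a pseudocount of 1 or without untreated replicate 1 or TSA replicate 2, and turned to -0.26 after quantile normalization. Psmb9, an immunoproteasome subunit, rose from 0.237 and 0.261 to 5.09 and 6.83 FPKM (log2 difference 4.11, adjusted p = 0.00057), and H2-M3, a nonclassical class I gene, rose from 0.929 and 0.832 to 4.1 and 3.45 FPKM (log2 difference 1.98, adjusted p = 0.00402). Erap1, which trims peptides for class I, fell from 9.2 and 9.4 to 1.41 and 1.4 FPKM (log2 difference -2.65, adjusted p = 0.000213). Interferon-induced genes were higher in 5 and lower in 6 of 37 (13.5% and 16.2%, against the same shares over all rows). Their median of 0.17 was -0.67 after quantile normalization. Irf7, an interferon regulatory factor, rose from 1.59 and 1.23 to 8.11 and 7.89 FPKM (log2 difference 2.44, adjusted p = 0.00158), and Usp18, which removes ISG15, rose from 0.0452 and 0.299 to 3.49 and 4.45 FPKM (log2 difference 4.07, adjusted p = 0.000483). Ifit1 fell from 6.16 and 6.95 to 0.923 and 0.507 FPKM (log2 difference -3.08, adjusted p = 0.000254), and Parp9 fell from 9.66 and 7.79 to 2.45 and 1.47 FPKM (log2 difference -2.13, adjusted p = 0.000927). The list had no common direction.

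Chemokines, cytokines and NF-kappaB targets were higher in 8 and lower in 6 of 28 (28.6% and 21.4%, against 19.4% and 12.7% over all rows). The median of 0.24 was -0.08 after quantile normalization and -0.02 with a filter at 5 FPKM. Without the members tested only through the TSA libraries 6 of 26 were higher and 6 lower, against 13.9% and 13.7% of the genes tested in this way. Cxcl10 rose from 11.1 and 10.3 to 84.1 and 115 FPKM (log2 difference 3.19, adjusted p = 0.000349). Cxcl12, a stromal chemokine, fell from 110.2 and 114 to 16 and 16.3 FPKM (log2 difference -2.79, adjusted p = 0.000147), and Cxcl14 fell from 72.8 and 83.5 to 6.22 and 6.5 FPKM (log2 difference -3.60, adjusted p = 0.000517). Il1rl1, the receptor of interleukin 33, fell from 485 and 628 to 43.4 and 30.9 FPKM (log2 difference -3.91, adjusted p = 0.00044). Among growth factors and their receptors 7 of 31 were higher and 9 lower (22.6% and 29.0%). The median of 0.15 was -0.26 with a filter at 5 FPKM and -0.01 after quantile normalization. Areg, an epidermal growth factor receptor ligand, rose from 1.54 and 2.23 to 92.5 and 81.4 FPKM (log2 difference 5.47, adjusted p = 3.63e-05), and Fgf7, the keratinocyte growth factor, fell from 30.4 and 30.2 to 3.26 and 1.62 FPKM (log2 difference -3.66, adjusted p = 0.000198). Igfbp4, a binding protein of insulin-like growth factors, fell from 84 and 81.4 to 11.7 and 10.4 FPKM (log2 difference -2.90, adjusted p = 0.000192).

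Immediate early and AP-1 genes were higher in 5 and lower in 5 of 24 (20.8% each, against 19.4% and 12.7% over all rows). Atf3 rose from 17.4 and 17 to 144 and 70.1 FPKM (log2 difference 2.54, adjusted p = 0.00152) and Klf2 rose from 25.5 and 30.1 to 85.4 and 115 FPKM (log2 difference 1.83, adjusted p = 6.73e-05). Fosb fell from 9.01 and 11 to 2.31 and 3.33 FPKM (log2 difference -1.80, adjusted p = 0.0017) and Fosl2 fell from 40.5 and 43.5 to 16.2 and 14.5 FPKM (log2 difference -1.44, adjusted p = 0.00545). Of 20 feedback genes of the ERK kinase pathway 4 were higher and 2 lower. Dusp4, a nuclear phosphatase of ERK, rose from 0.509 and 0.491 to 9.9 and 11.6 FPKM (log2 difference 4.17, adjusted p = 3.56e-05), and Spry4, an inhibitor of receptor signalling, fell from 6.25 and 6.57 to 0.842 and 1.42 FPKM (log2 difference -2.44, adjusted p = 0.00161).

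The series concerns VL30, mouse retroviral elements whose long terminal repeats are sorted by their U3 region, and the TSA libraries addressed whether deacetylases keep these elements silent. VL30 U3 class I rose. Its element FPKM, taken from the fragments of unannotated loci at least 50% inside an element, went from 0.473 and 0.452 untreated to 13.9 and 23.7 with TSA, a log2 difference of 5.02 ± 0.30 (SE, limma, adjusted p = 1.64e-05). Both parts of the class rose. Elements with a proline tRNA primer binding site (PBS-pro) went from 0.0168 and 0.0107 to 2.09 and 3.68, a log2 difference of 4.66, and those without it from 1.02 and 0.978 to 27.96 and 47.59, a log2 difference of 5.06. The untreated PBS-pro values lie well under the pseudocount, which shrinks the 4.66. An element with no assembled locus in a library counts as 0, which can lower the untreated values. The size of that change is therefore uncertain, and the difference between the 2 parts was not tested.

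Of the 71 class I elements, 54 had a locus in any of the 10 libraries, the TSA libraries included. Of these 54, 45 lay higher in both TSA libraries than in both untreated libraries and 1 lay lower. Among these 45 were all 18 of the PBS-pro elements with a locus and 27 of the 36 others. Only 7 elements had a value in both untreated libraries, against 46 in both TSA libraries. An element without a value in an untreated library could not lie lower. The counts are therefore a description that favours rises, and no share over other loci was set beside them. One element without the PBS-pro site, on chromosome 2 and outside the genes of GENCODE vM1, stood at 3.77 and 4.10 FPKM untreated and 319 and 509 FPKM with TSA, and it carried 54.5% and 50.9% of the class I fragments in the TSA libraries against 18.9% and 21.5% untreated. The element that lay lower, on chromosome 11 and also without the PBS-pro site, stood at 8.37 and 8.13 FPKM untreated and at 0 with TSA. It held 505 and 446 of the 1252 and 1086 class I fragments untreated, and stood at 148 and 147 FPKM with 4OHT at day 6. Whether its 0 is a locus that was not assembled was not tested. Copies of VL30 are nearly identical and a read with several matches was placed once, so the share of single elements is uncertain.

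Class III went from 0.0453 and 0.0221 to 9.22 and 15.0, a log2 difference of 6.48 (adjusted p = 5.63e-06), and class IV from 0.0272 and 0.0150 to 8.38 and 13.8, a log2 difference of 6.49 (adjusted p = 9.66e-06). Class II was at 0 untreated and at 0.00441 and 0.0134 with TSA, under the pseudocount and not called (adjusted p = 0.674). RLTR4 stands here for 51 elements related to murine leukaemia virus, measured with their internal region (353.7 kb in all). It fell from 0.650 and 0.678 to 0.0497 and 0.0234, a log2 difference of -2.49 (adjusted p = 0.000209). Its call was lost with a pseudocount of 1. IAPEz and MMERVK10C stayed under 0.002 element FPKM in all 4 libraries, far under the pseudocount of 0.1, so that neither could be called. IAPEz had 0 and 9.6 fragments untreated and 55.3 and 56.7 with TSA. MMERVK10C had 0 and 0 fragments untreated and 17.0 and 22.8 with TSA. In both families the TSA libraries thus lay higher, but on few fragments at this depth and with placement of multi-mapped reads at 1 site. Without TSA, 4OHT at day 6 in the same cell line gave class I values of 19.8 and 25.1. The deletion gave 9.54 and 14.8 for the PBS-pro elements and 5.00 and 5.55 for class III, and both treatments share the untreated libraries.

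**Figure D4:**
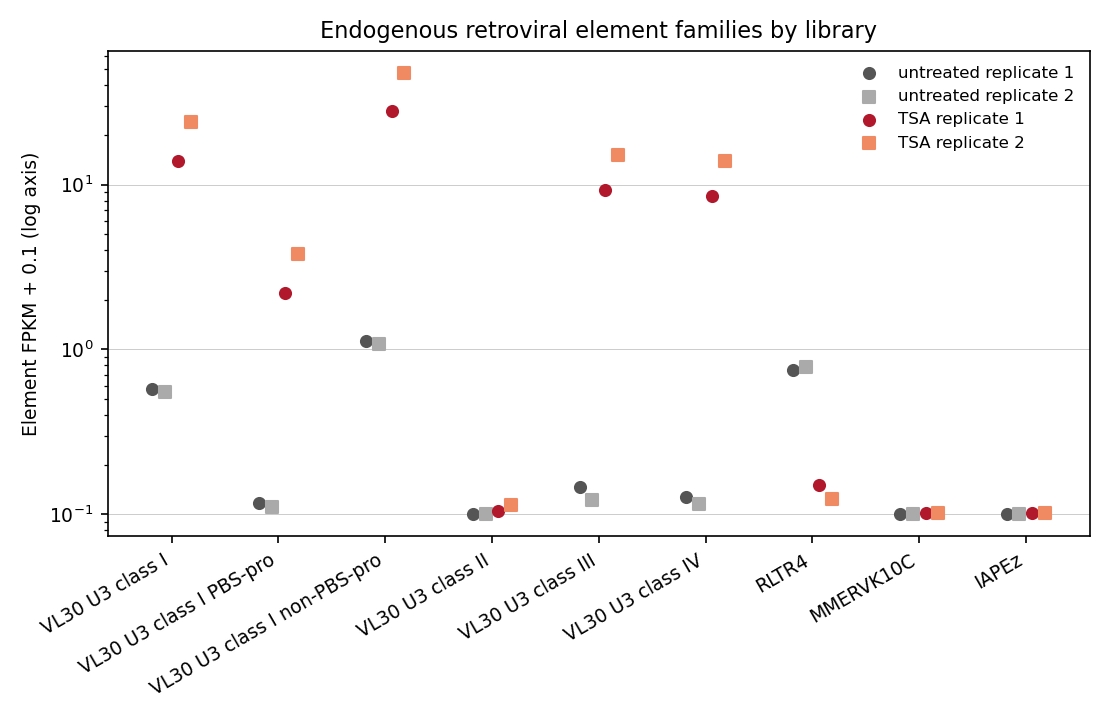
Element FPKM + 0.1 (y, log axis) of each endogenous retroviral family (x) in the 4 libraries. VL30 U3 classes I, III and IV lie far higher in both TSA libraries, RLTR4 lies lower, and class II, MMERVK10C and IAPEz sit at the pseudocount in every library.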

How the data were processed

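RNA-seq of 4 libraries of Setdb1 cKO iMEFs was compared, 2 given TSA and 2 untreated. The authors aligned reads with TopHat2 (2.0.12, 1 site per read) to mm9 and assembled each library alone with Cufflinks against RefSeq genes, and they deposited FPKM per locus. Read length is not given in the sources used here. Depth was estimated from the FPKM confidence limits. The deposited FPKM of loci sharing a symbol were summed, genes named Mir or Snor were dropped, and symbols joined with another gene in any library have no value, which left 21517 genes.

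limma (3.58.1, R 4.3.3) was fitted to log2(FPKM + 0.1) of all 10 inhibitor libraries (5 groups of 2) with trended variances and Benjamini-Hochberg adjustment over genes with at least 1 FPKM in at least 2 libraries. Genes were called at adjusted p under 0.05 and at least 2-fold. Errors of log2 differences are standard errors from this fit. On simulated data for TSA against untreated with 11306 genes, 88 of 100 genes changed by 2 on the log2 scale and 69 of 100 changed by 1.5 were recovered, with 7 others called.

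Genes were named by rule: the 12 highest and 12 lowest called log2 differences, the 6 largest rises and falls in FPKM, up to 4 called members per list and direction (or the 2 most abundant tested where none was called), the deacetylases, Setdb1, and the genes near 0 in 1 group with the highest level in the other. Other list members were named after their values were seen. Some members that the rule would name are not reported here. The gene lists were chosen with earlier results of these data known, and they are described by counts with no test. Promoter motifs were not compared between genes that rose and fell, since 79.3% of tested genes had a promoter entry, under the 80% set for such a check. Alternatives were other pseudocounts, filters, scalings, fold limits, libraries in the fit, a replicate block and leaving out each library. Centring on the median difference and removing genes listed at 0 in both libraries of a group were added after the data were seen.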

Additional observations from a re-analysis of the deposited data

Results flagged for a closer look

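Assembled loci without a gene name, which no gene comparison uses, were more numerous with TSA. There were 2524 and 2437 in the untreated libraries and 3325 in TSA replicate 1 and 3632 in TSA replicate 2. They were picked out because both TSA libraries lay above both controls in data outside the gene measurement, and the difference was not tested. Their estimated fragments made up 3.13% and 3.90% of the library depth untreated and 2.67% and 5.89% with TSA, so that the groups overlapped in the amount of RNA although not in the number of loci. Each library was assembled on its own.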

How the results depend on the processing

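With 2 libraries per group the spread was shared with 6 further libraries, exact tests over 4 libraries cannot go below p = 0.333, and FPKM near the pseudocount of 0.1 understate changes. The count of genes called higher was 3488 without a filter on low values and 1272 with a filter at 5 FPKM. Without a fold limit 3566 rows were higher and 2752 lower, and at 4-fold or more 1014 and 390. Leaving out 1 library gave 1852 to 2113 higher and 1249 to 1455 lower, and a VL30 U3 class I log2 difference of 4.64 to 5.40. That class was called under all its alternatives. IAPEz turned to -0.39 after quantile normalization and -0.081 when centred on the median difference, MMERVK10C to -0.11 and -0.083, and VL30 U3 class II to -0.10 and Cd274 to -0.26 after quantile normalization, while Setdb1 gave 0.083 without untreated replicate 2 and 0.02 without TSA replicate 2, in a range of -0.12 to 0.083 without 1 library. The causes were not tested.

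Replicate numbers were shared across groups, but the deviations of same-numbered TSA and untreated libraries correlated at only 0.029, so the numbers were not taken as pairs. With the replicate block 2229 rows were higher and 1463 lower, and with the block in the 4 libraries alone, chosen after seeing the data, 2277 and 1477.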

Other observations

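Developmental patterning genes were mixed. Of 17 tested Hox genes 3 were called higher and 6 lower (17.65% and 35.3%, against 19.4% and 12.7% over all rows). The median log2 difference of 0.39 was -0.40 after quantile normalization and -1.31 with a filter at 5 FPKM. All 3 called higher were tested only through the TSA libraries, and of the 13 other members 0 were called higher and 6 lower, with a median of -0.29. Hoxb13, the most posterior gene of its cluster, rose from 0.256 and 0.141 to 10.2 and 10.9 FPKM (log2 difference 5.18, adjusted p = 1.38e-05). Hoxc11 fell from 22.3 and 27.5 to 3.17 and 1.74 FPKM (log2 difference -3.34, adjusted p = 0.000181), and Hoxb2 fell from 6.92 and 7.03 to 1.73 and 2.78 FPKM (log2 difference -1.62, adjusted p = 0.000718). Of 26 Wnt, Hedgehog and Notch response genes 9 were higher and 6 lower (34.6% and 23.1%). The median of 0.31 was -0.02 after quantile normalization and -0.55 with a filter at 5 FPKM. Without the members tested only through the TSA libraries 3 of 20 were higher and 6 lower, with a median of -0.52. Sfrp1, a secreted Wnt antagonist, rose from 0.136 and 0.0374 to 10.02 and 12.4 FPKM (log2 difference 5.97, adjusted p = 3.44e-05), and the Notch target Hey1 rose from 0.0708 and 0.039 to 4.35 and 6.06 FPKM (log2 difference 5.09, adjusted p = 0.00041). Smo, which transduces Hedgehog signals, fell from 26.3 and 26 to 4.2 and 4.33 FPKM (log2 difference -2.59, adjusted p = 2.75e-06), its effector Gli2 fell from 5.03 and 4.86 to 0.934 and 0.88 FPKM (log2 difference -2.33, adjusted p = 0.000186), and the Notch target Hes1 fell from 119 and 122 to 53.7 and 18.4 FPKM (log2 difference -1.94, adjusted p = 0.00754).

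Imprinted genes were lower in 7 of 16 and higher in 2 (43.75% and 12.5%, against 12.7% and 19.4% over all rows). The median of -0.77 was 0.30 without a filter on low values. Mest fell from 80.1 and 76.4 to 18.5 and 18.1 FPKM (log2 difference -2.09, adjusted p = 0.00101) and Sgce fell from 18.2 and 17.5 to 4.91 and 4.62 FPKM (log2 difference -1.88, adjusted p = 5.32e-05), while Peg10, a gene derived from a retrotransposon, rose from 29.3 and 33 to 66.3 and 122 FPKM (log2 difference 1.53, adjusted p = 0.00141). Of 27 measured germline genes only Tex15 and Stag3 passed the filter, Tex15 through the TSA libraries alone, and both were called higher. Tex15 rose from 0.0775 and 0.0474 to 2.81 and 3.62 FPKM (log2 difference 4.35, adjusted p = 4.47e-05), and the others, among them Dazl, Sycp3 and Mael, stayed under 0.5 FPKM in all 4 libraries. Of 8 metallothionein and zinc transporter genes 2 were higher and 1 lower (25.0% and 12.5%, against 19.4% and 12.7% over all rows). Mt2, which binds zinc and other metals, rose from 45.8 and 47.3 to 229 and 159 FPKM (log2 difference 2.03, adjusted p = 0.00103), and Slc39a10, a zinc importer, fell from 20.8 and 20.02 to 7.41 and 5.15 FPKM (log2 difference -1.71, adjusted p = 0.00137).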
